A study of Mus musculus with 17 samples.

Results

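Genes for the protein subunits of oxidative phosphorylation were followed in mouse spleen, in both genomes that encode them. They were chosen by a rule on names that uses no measured value, though earlier results of these data were known. The rule takes mitochondrial gene names starting mt-Nd, mt-Co, mt-Atp or mt-Cyt. It also takes nuclear names starting Nduf followed by a, b, c, s or v, or starting Uqcr, Cox4 to Cox8 or Atp5. The rule took 104 of the 38340 genes in the deposited table, 13 encoded in mitochondrial DNA and 91 in the nucleus. Of the 91 nuclear members, 78 are subunits, namely 36 of complex I, 8 of complex III, 19 of complex IV and 15 of complex V. The other 13 share the naming and are not counted as subunits. They are 7 complex I assembly factors (Ndufaf genes), the supercomplex factor Cox7a2l, the genes Atp5s and Atp5sl, and 3 pseudogenes.

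The 17 libraries came from whole spleens of mice whose strain is spelled CB57BL/6NCrl in the labels, with no other allele or deletion named. SLR10, SLR14, polyIC and pppNS had 3 libraries each, the vehicle had 2 and untreated (naïve) animals had 3. SLR10 and SLR14 are short stem-loop RNAs made as ligands of RIG-I, a cytoplasmic sensor of viral RNA. PolyIC is a long synthetic double-stranded RNA, and the labels do not spell out pppNS. The protocol, worded alike for all libraries, gives 25 µg of RNA in 200 µl, intravenously, in in vivo-jetPEI at an N/P ratio of 8, and the vehicle is jetPEI without RNA. Age, sex and the interval between injection and collection are not given in the sources used here, and nothing says whether a library holds 1 animal or several, so p-values measure the spread between these libraries.

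The respiratory chain sits in the inner mitochondrial membrane. Complex I takes electrons from NADH, complex III passes them from ubiquinol to cytochrome c, complex IV passes them to oxygen, and complex V, the ATP synthase, uses the proton gradient they build to make ATP. Mitochondrial DNA encodes a few core subunits of each of these complexes, and the nucleus encodes all the others, so each finished complex needs transcripts from both genomes. Activated macrophages and lymphocytes are known for shifting the balance between glycolysis and respiration.

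Each library held between 15.8 and 29.7 M reads on named genes, and 1 read was worth 0.0175 to 0.0431 on the authors' normalized CPM scale. Of the 104 members, 95 reached 1 CPM in at least 2 libraries and were tested: 12 mitochondrial genes, 73 nuclear subunits and 10 of the other nuclear members. The 9 that did not were mt-Nd4l, Cox4i2, Cox7a1, Cox7b2, Cox8b, Cox8c and the 3 Atp5l pseudogenes. All 10 B cell markers and all 10 T cell markers on fixed lists passed the same filter.

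Several libraries stood apart before any group was compared. The library labelled pppNS replicate 3 had the highest value of its group for 70 of the 73 tested nuclear subunits and a summed nuclear level of 10729 CPM, against 3059 and 3462 CPM in the other pppNS libraries. Naïve replicate 3 was likewise highest in its group for 70 of 73. In both, short transcripts were high as a class: the median of the 832 tested genes with under 1000 nt of exon stood above that of the 7455 genes with over 4000 nt by 0.64 in pppNS replicate 3 and by 0.46 in naïve replicate 3 on the log2 scale, after centring each gene, against -0.29 to 0.25 in the other 15 libraries. The nuclear subunits are short, with a median exon length of 1495 nt against 4261 nt over all tested genes. Naïve replicate 3 also held pancreatic transcripts, 55.6 CPM summed over 11 markers against 1.54 to 13.7 CPM elsewhere. The part of transcript length and of pancreatic RNA in the results was not tested, so results are given with and without these libraries.

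Erythroid transcripts set apart another group of libraries. The sum over 21 erythroid genes (21 of 25 listed were in the table, all above the filter) was 3159 to 4646 CPM in the SLR10 libraries, and 4497, 34887 and 5655 CPM in SLR14 replicates 1 to 3. It was 3869, 44200.4 and 22388 CPM with polyIC, 10289.9, 9469 and 76220 CPM with pppNS, 4017 and 3387 CPM with the vehicle, and 7027, 4663 and 13326 CPM in naïve spleens. The mean log2(CPM + 0.5) of these genes was 7.58, 7.83 and 9.24 in pppNS replicates 1 to 3, against 4.84 and 5.53 with the vehicle. It was 9.06 in SLR14 replicate 2, 9.61 and 8.45 in polyIC replicates 2 and 3, and 6.02 to 6.97 in naïve spleens. By this measure all pppNS libraries lay above both vehicle libraries. SLR14 replicate 2 held the highest value of its group for 63 of 73 nuclear subunits, and polyIC replicate 2 for 69 of 73. Whole spleen was sequenced, so fewer cells of a type and less RNA per cell cannot be told apart.

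Mitochondrially encoded transcripts were far more abundant than nuclear ones per unit of length. Averaged over the 17 libraries and expressed as CPM per kb of exon, the 12 tested mitochondrial genes had a median of 1076 and the 72 nuclear subunits with a single gene model a median of 25.8. The highest levels per kb were in the catalytic core of complex IV, mt-Co2 at 4227, mt-Co1 at 4191 and mt-Co3 at 3493 CPM per kb, followed by mt-Atp6, a proton channel subunit of complex V, at 3115, and mt-Cytb, the complex III cytochrome, at 1694. The complex I genes were lower, with mt-Nd1 at 1264, mt-Nd4 at 888, mt-Nd2 at 771, mt-Nd3 at 655 and mt-Nd5 at 352 CPM per kb. mt-Nd6, the only member on the other strand of mitochondrial DNA, stood at 21.1 CPM per kb, within the range of the nuclear subunits.

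**Figure D1:**
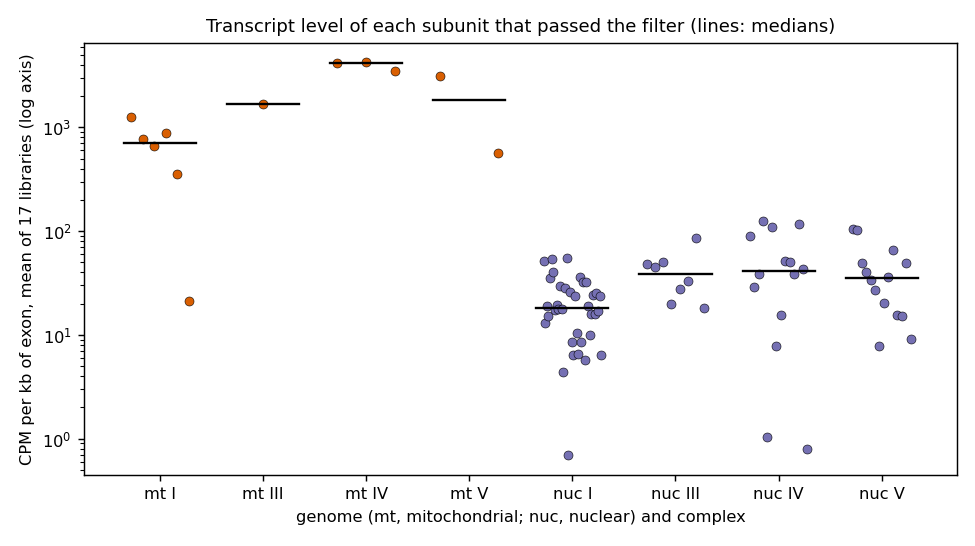
Mean level of each subunit that passed the filter, in CPM per kb of exon over 17 libraries on a log axis, by genome and complex, with lines at the medians. The mitochondrial genes lie above the nuclear ones in every complex except mt-Nd6 (21.1 CPM per kb), and the nuclear medians are 18.3 for complex I, 38.9 for III, 40.9 for IV and 35.2 for V.

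Neighbouring mitochondrial genes overlap in the annotation (GRCm38, GENCODE vM21), so reads in the shared bases cannot be assigned from counts alone. mt-Nd5 (chrM:11742-13565, plus strand) overlaps mt-Nd6 (chrM:13552-14070, minus strand), mt-Atp8 (chrM:7766-7969) overlaps mt-Atp6 (chrM:7927-8607), and mt-Nd4l (chrM:9877-10173) overlaps mt-Nd4 (chrM:10167-11544). mt-Nd4l is listed at 0 in 16 of 17 libraries and at 0.0325 CPM, a single read, in polyIC replicate 2, although mt-Nd4 averaged 1224 CPM, so the value listed for mt-Nd4l was not used.

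Among nuclear subunits the most abundant per kb of exon were in complexes IV and V. Cox6a1 (124 CPM per kb) and Cox8a (118), small structural subunits of complex IV, led, followed by another of them, Cox6b1 (109). Next came Atp5a1 (106) and Atp5b (102), the alpha and beta subunits that form the catalytic head of ATP synthase. This order depends on the length used. Per kb of the longest transcript, Atp5b stood at 226 and Cox4i1 at 183, above Cox6a1 at 141 and Cox8a at 132. Uqcrh (86.5) and Uqcrb (50.2) were highest in complex III, and Ndufb11 (54.8) and Ndufa2 (53.3) in complex I. The median per kb was 18.3 for the 36 nuclear complex I subunits, below the medians of 38.9 for complex III, 40.9 for complex IV and 35.2 for complex V. Many nuclear subunit genes have processed pseudogenes and mitochondrial genes have nuclear copies, and how shared reads were counted is not given in the sources used here, so levels of single genes are uncertain to that extent.

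The share of reads that fell on mitochondrially encoded members was lower in every library given RNA than in every vehicle or naïve library. It was 2.45%, 2.47% and 2.67% of reads on named genes with SLR10, 2.62%, 2.23% and 2.97% with SLR14, 3.24%, 3.24% and 3.19% with polyIC, and 2.67%, 3.21% and 2.35% with pppNS. The vehicle libraries had 3.97% and 4.44%, and the naïve libraries 5.12%, 4.76% and 5.40%. Markers of other cells moved with the groups. The sum of 10 B cell markers was 1473 to 2384 CPM with SLR10, SLR14 and polyIC, 2346 to 3038 CPM with pppNS, and 3020.1 to 3551 CPM in vehicle and naïve libraries. That of 10 T cell markers was 243 to 394, 463 to 545 and 479 to 650.4 CPM in the same order, and that of 9 red pulp macrophage markers 968 to 1291, 1318 to 2362 and 1440 to 1834 CPM. The sum of 10 neutrophil markers went the other way, 521 to 1551 CPM with SLR10, SLR14 and polyIC, 347 to 1195 CPM with pppNS, and 183 to 339 CPM in vehicle and naïve libraries. The part of these cells in the mitochondrial share was not tested. On the authors' normalized scale the picture differed, because the named genes of a library sum to 473827 to 537493 CPM in vehicle and naïve libraries and to 518962 to 800473 CPM in libraries given RNA. There the mitochondrial sum was 16343, 16763 and 18264 CPM with SLR10, 17914, 16741 and 20234 CPM with SLR14, 22834, 25892 and 22443 CPM with polyIC, 14496, 16646 and 18815 CPM with pppNS, 19035 and 21035 CPM with the vehicle, and 25539, 24708 and 29026 CPM in naïve spleens. On that scale the SLR10 libraries lay below both vehicle libraries and the polyIC libraries above both.

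The ratio of the mitochondrial to the nuclear sum does not depend on scaling between libraries. It was 5.03, 5.25 and 5.54 with SLR10 against 6.53 and 7.65 with the vehicle. With SLR14 it was 5.70, 3.95 and 5.93, with the lowest value in the erythroid-rich replicate 2, where mitochondrial genes were lowest of the group in 11 of 12 cases and nuclear subunits highest in 63 of 73. With polyIC it was 7.99, 5.42 and 6.18, and with pppNS 4.74, 4.81 and 1.75. The naïve libraries had 7.68, 6.31 and 5.54. All SLR10, SLR14 and pppNS libraries thus lay below both vehicle libraries, while the polyIC and naïve libraries overlapped them.

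**Figure D2:**
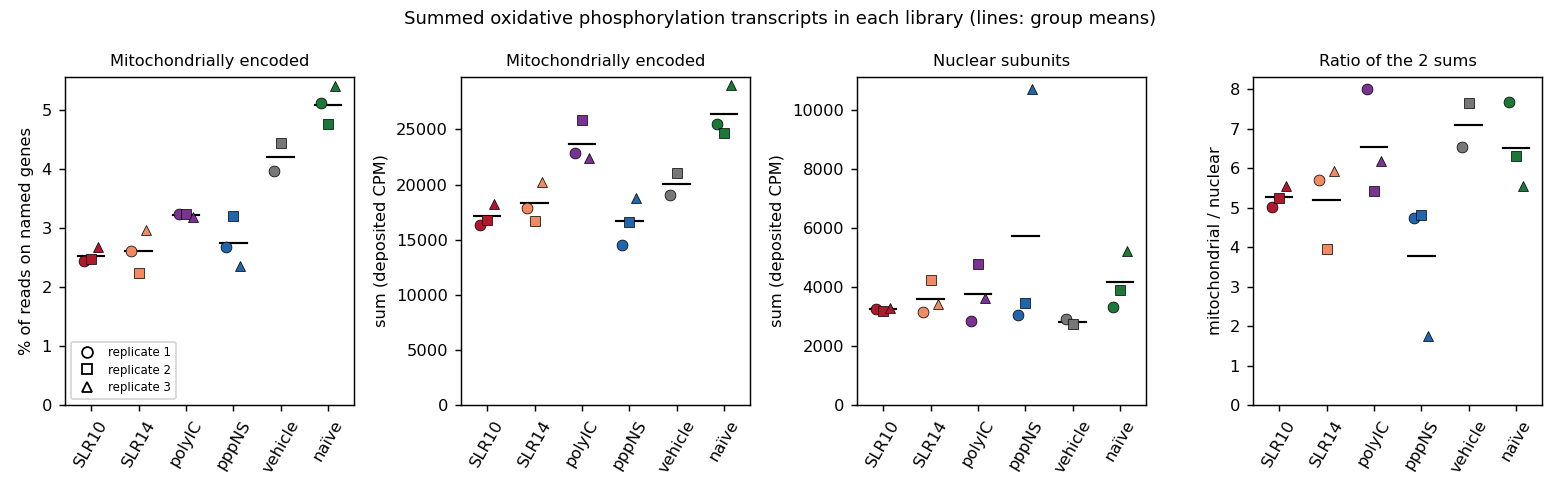
Each point is a library; the panels show the share of reads on named genes that fell on mitochondrially encoded members, the summed CPM of those members, the summed CPM of nuclear subunits, and the ratio of the sums, with lines at group means. Libraries given RNA sit at 2.23 to 3.24% in the first panel, below the vehicle libraries at 3.97% and 4.44%, and pppNS replicate 3 stands apart at 10729 CPM in the third.

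Gene by gene, in limma fitted on log2(CPM + 0.5) over all 17 libraries, no mitochondrially encoded gene passed an adjusted p of 0.05 in any of the 7 comparisons. Against the vehicle, 0 of 12 passed with SLR10, where 39.4% of all 14010 tested genes passed in either direction, 0 with SLR14 (38.7% of all genes), 0 with polyIC (35.9%) and 0 with pppNS (4.3%). The smallest adjusted p among them in any comparison was 0.0949, and with an unadjusted p under 0.05 there were 0 with SLR10, SLR14 and polyIC and 4 with pppNS. At SLR10 all 12 lay below the vehicle, with a median log2 change of -0.23 (range -0.50 to -0.14), beside -0.01 over all tested genes. At SLR14 11 of 12 lay below, with a median of -0.16, and at polyIC 11 of 12 lay above, with a median of 0.22. Under quantile scaling these medians were -0.86, -0.85 and -0.63, so the direction with polyIC rests on the scaling.

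mt-Co1, the catalytic subunit of complex IV, was measured at 5293, 5465 and 5908 CPM with SLR10, 5849, 5768 and 6499 CPM with SLR14, 7217, 8588 and 7206 CPM with polyIC, and 5919 and 6669 CPM with the vehicle. The SLR10 libraries lay below both vehicle libraries, and the polyIC libraries above both. Relative to the vehicle mean on the log2 scale, naïve libraries stood at 0.40, 0.37 and 0.48 and polyIC libraries at 0.20, 0.45 and 0.20. The log2 change was -0.18 (95% interval -0.65 to 0.29) with SLR10 and 0.28 (-0.19 to 0.75) with polyIC. Both intervals include 0.

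mt-Nd1 and mt-Nd3, complex I subunits, were the mitochondrial genes with a call once pppNS replicate 3 and naïve replicate 3 were left out of the SLR10 comparison. mt-Nd1 measured 865, 897 and 970.3 CPM with SLR10, 1122 and 1310.2 CPM with the vehicle, and 1751, 1552 and 1815 CPM in naïve spleens, all SLR10 libraries below all vehicle libraries. Its log2 change of -0.41 had an adjusted p of 0.145 over all 17 libraries. mt-Nd3 measured 149, 143 and 160.2 CPM with SLR10 against 206 and 219.6 CPM, again without overlap, with a log2 change of -0.50 and an adjusted p of 0.402. Without those 2 libraries both were lower with SLR10 (2 of 12 mitochondrial genes, where 25.4% of all genes were lower), and mt-Nd3 was lower with SLR14 (1 of 12, where 25.7% were). mt-Atp8 was higher with polyIC (1 of 12, where 25.6% of all genes were higher). Fitted on SLR10 and vehicle libraries only, 5 of 12 were lower with SLR10, where 35.4% of all genes were.

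In pppNS replicate 3 the mitochondrial genes stood in other proportions than anywhere else. mt-Nd5 was 77.5 CPM there, against 539.7 and 631 CPM in the other pppNS libraries. mt-Nd4 was 405 CPM against 998 and 1138 CPM, and mt-Atp8 was 3.06 CPM against 95.4 and 109 CPM. mt-Co2 went the other way, with 6269 CPM against 1778 and 2051 CPM, as did mt-Nd3 with 441 CPM against 129 and 153 CPM. The ratio of mt-Co2 to mt-Nd5 was therefore 80.9 in that library. The share of reads on lines without a gene name was also highest there, 46.1% against 28.1 to 40.4% in the other 16 libraries, and its part in these values was not tested.

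**Figure D3:**
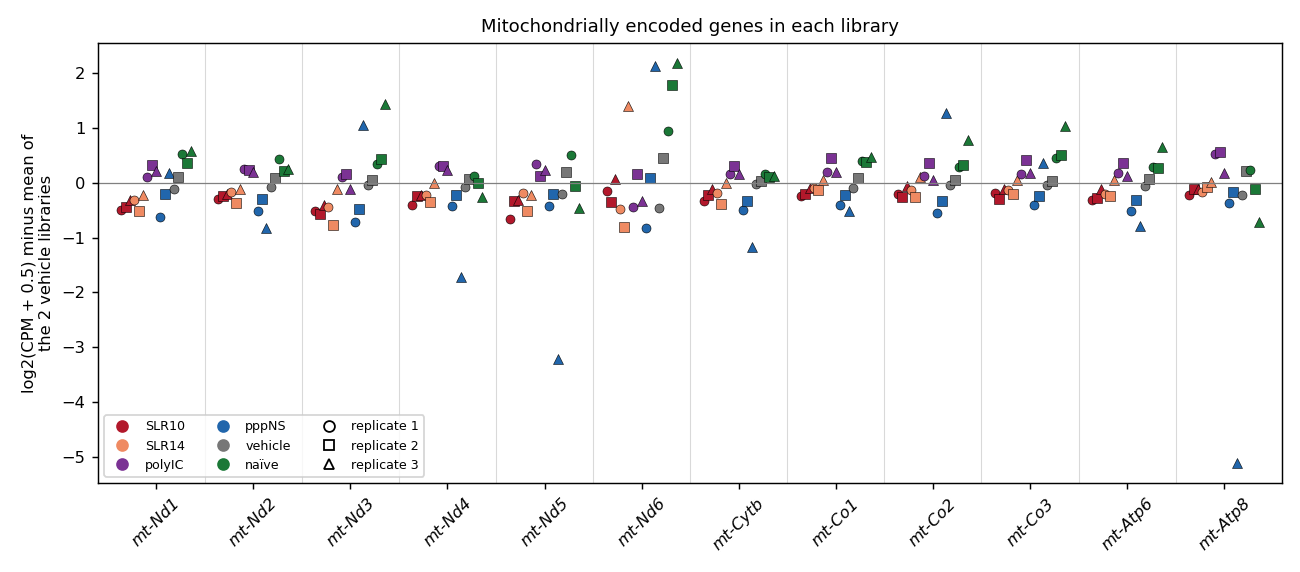
The log2(CPM + 0.5) of each tested mitochondrial gene in each library, minus the mean of the 2 vehicle libraries; colours mark groups and symbols replicates. SLR10 points (red) lie mostly just below 0, and pppNS replicate 3 (blue triangle) falls far below for mt-Nd4, mt-Nd5 and mt-Atp8 while rising for mt-Nd3 and mt-Co2.

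Few nuclear subunits passed the test against the vehicle. With SLR10, 0 of 73 rose and 1 fell, where 20.2% of all tested genes rose and 19.2% fell. With SLR14, 1 rose and 1 fell (19.3% and 19.4% of all genes), and with polyIC 2 rose and 1 fell (18.6% and 17.3%). The median log2 change was 0.07 with SLR10, 0.23 with SLR14 and 0.30 with polyIC, beside -0.01, 0.04 and 0.07 over all genes. These medians turned to -0.13, -0.06 and -0.03 under quantile scaling, which shifted the median of all genes to -0.09, -0.07 and -0.09, so their direction rests on the scaling. It also rests on the control: against naïve and vehicle libraries together the medians were -0.24, -0.08 and -0.05. A replicate block gave -0.09 with SLR10, and the erythroid covariate gave -0.06 with polyIC. With pppNS replicate 3, naïve replicate 3 and the erythroid-rich SLR14 replicate 2 and polyIC replicates 2 and 3 all left out, the median was 0.09 with SLR14 and -0.09 with the 1 polyIC library that remained. A change under the threshold was not always measured tightly: with SLR10, 28.8% of nuclear subunits had a 95% interval within 2-fold, against 37.6% of all genes.

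By complex, no call was made for a nuclear complex I subunit against the vehicle with any RNA (0 of 36 each, where 39.4%, 38.7%, 35.9% and 4.3% of all genes were called with SLR10, SLR14, polyIC and pppNS). Without pppNS replicate 3 and naïve replicate 3, 3 rose and 1 fell with SLR10, where 27% of all genes rose and 25.4% fell. With SLR14 it was 6 and 1 (25.9% and 25.7% of all genes), and with polyIC 4 and 1 (25.6% and 24.1%). On SLR10 and vehicle libraries only 7 rose and 6 fell, where 35.3% of all genes rose and 35.4% fell. The complex I median log2 change was 0.01 with SLR10, 0.13 with SLR14 and 0.15 with polyIC. The medians of complex III were 0.25, 0.39 and 0.38, those of complex IV 0.08, 0.27 and 0.39, and those of complex V 0.16, 0.32 and 0.35. Complex I thus had the lowest median of the 4 complexes in each of these comparisons, which share their vehicle libraries, but in none of them under quantile scaling, where it was -0.09, -0.02 and -0.01 against -0.22, -0.12 and -0.13 for complex V. The difference between complexes was not tested.

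**Figure D4:**
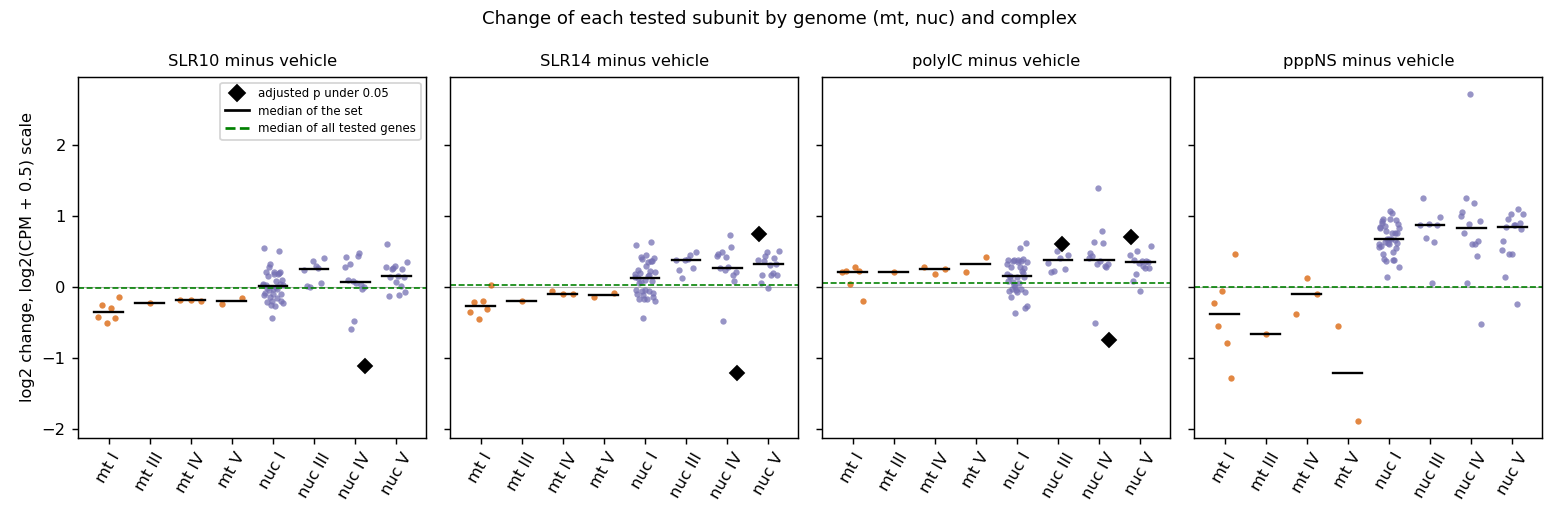
Log2 change against the vehicle for each tested subunit, by genome (mt, nuc) and complex, with black lines at medians, a dashed line at the median of all tested genes and diamonds for an adjusted p under 0.05. With SLR10 and SLR14 the mitochondrial medians lie below 0 and the nuclear ones above; with pppNS the nuclear points lie high, a shift that rests on 1 library.

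These counts depended on pppNS replicate 3 and naïve replicate 3, and calls over all genes rose too when they were left out. Without them, 6 nuclear subunits rose and 3 fell with SLR10, where 27% of all genes rose and 25.4% fell. With SLR14, 12 rose and 3 fell (25.9% and 25.7% of all genes), and with polyIC 13 rose and 3 fell (25.6% and 24.1%). In either direction 52.4% of all genes were called with SLR10, 51.7% with SLR14 and 49.7% with polyIC. Fitted on SLR10 and vehicle libraries only, 23 rose and 8 fell, where 35.3% of all genes rose and 35.4% fell. Fitted on polyIC and vehicle libraries only, 1 rose and 1 fell (18.2% and 17.9% of all genes). Under that omission 6 nuclear subunits rose in all of these comparisons, namely Atp5b, Cox5a, Cox7b, Ndufa12, Ndufab1 and Ndufs3. Ndufb2 and the minor isoforms Ndufa4l2 and Cox6a2 fell in all. These names were chosen after their values were seen. How many of all tested genes were called in all 3 comparisons was not counted, and the comparisons share their vehicle libraries. Cox6a2 averaged 0.711 CPM over all 17 libraries. Its means were highest in naïve and pppNS libraries, at 1.95 and 1.51 CPM per kb. The vehicle had 1.13, and SLR10, SLR14 and polyIC had 0.525 to 0.599. It may have passed the filter at 1 CPM only through groups where it was high, which limits its calls. Ndufs3, a core subunit of complex I, measured 41.9, 39.2 and 40.7 CPM with SLR10, 40.8, 48.7 and 43.8 CPM with SLR14, 32.9, 43.5 and 36.7 CPM with polyIC, and 29.7 and 26.9 CPM with the vehicle. Its lowest library given any of these RNAs lay above both vehicle libraries. The vehicle libraries were themselves below naïve spleens for all 73 nuclear subunits, Ndufs3 among them, with a median log2 change of -0.56.

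The gene for the ATP synthase beta subunit, Atp5b, was the only subunit that rose with more than 1 agent over all 17 libraries. It lies at chr10:128083273-128090391 on the plus strand (GRCm38). It measured 426, 438 and 452 CPM with SLR10, 437, 608 and 429 CPM with SLR14, 352, 615 and 476 CPM with polyIC, 366, 443 and 565 CPM with pppNS, 291 and 285 CPM with the vehicle, and 353, 399 and 419 CPM in naïve spleens. Both vehicle libraries were the lowest of the 17. The log2 change was 0.75 ± 0.24 (SE) with SLR14 (adjusted p 0.0204), 0.70 ± 0.24 with polyIC (adjusted p 0.0309) and 0.60 ± 0.24 with SLR10 (adjusted p 0.0555). The highest values of the SLR14 and polyIC groups were in the erythroid-rich replicates 2. Without SLR14 replicate 2, or without either vehicle replicate, the SLR14 call was lost. The polyIC call was lost in 11 of 22 alternative analyses, among them those without polyIC replicate 2 or 3, without either vehicle replicate and with the erythroid covariate. Under quantile scaling the change was -0.12 with SLR14 and -0.21 with polyIC.

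Uqcrfs1, the Rieske iron-sulfur protein of complex III (chr13:30540308-30545362, minus strand), rose with polyIC. It measured 39.7, 60.8 and 51.2 CPM with polyIC and 33.6 and 31.2 CPM with the vehicle, without overlap. With SLR14 it measured 36.4, 53.4 and 45.8 CPM. Naïve spleens averaged 44.0 ± 4.8 CPM and pppNS libraries 51.9 ± 14 CPM (SD, n = 3 each), beside a mean of 50.5 CPM with polyIC. The log2 change with polyIC was 0.61 ± 0.22 (adjusted p 0.0438). This call was lost in 15 of the 22 alternative analyses, among them those without polyIC replicate 2 or replicate 3 and without either vehicle replicate. It was also lost with naïve and vehicle libraries together as control, with the erythroid covariate and with edgeR.

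Ndufaf4, an assembly factor of complex I (chr4:24898083-24905001, plus strand), rose with both stem-loop RNAs. It measured 30.1, 27.2 and 29.3 CPM with SLR10, 29.8, 21.3 and 32.0 CPM with SLR14, 29.3, 20.7 and 21.8 CPM with polyIC, 17.8, 18.2 and 16.96 CPM with pppNS, 17.5 and 15.7 CPM with the vehicle, and 14.96, 14.6 and 18.1 CPM in naïve spleens. Every library given SLR10, SLR14 or polyIC lay above all others. The log2 change was 0.78 ± 0.19 with SLR10 (adjusted p 0.00418) and 0.70 ± 0.19 with SLR14 (adjusted p 0.00831), and with polyIC it was 0.50 ± 0.19 (adjusted p 0.0506). It was the only assembly factor of 7 called against the vehicle with either stem-loop RNA, and the only member of 95 that was higher with SLR10 than with pppNS. The SLR10 call was lost without vehicle replicate 2 (adjusted p 0.0507), and the SLR14 call there and under quantile scaling (adjusted p up to 0.0815). Unlike Atp5b, it was lowest in the erythroid-rich libraries of the SLR14 and polyIC groups.

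The promoters of the 3 members that rose are shown because these genes are the only ones called higher against the vehicle over all libraries. The bases come from RefSeq (GRCm38.p6) and stop at the first base of either gene model. Capitals mark motifs classically tied to respiratory genes, searched on both strands in the 250 bases before the RefSeq start: GCGCA and GCGC with any base between them for NRF-1, CCGGAAG for ETS factors such as GABP, and GGGCGG for Sp1.
Atp5b, chr10:128083057-128083272, plus strand: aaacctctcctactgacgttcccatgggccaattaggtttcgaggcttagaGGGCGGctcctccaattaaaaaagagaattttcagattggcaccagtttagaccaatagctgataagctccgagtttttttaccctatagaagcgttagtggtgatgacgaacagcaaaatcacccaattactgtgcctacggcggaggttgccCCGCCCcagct
Uqcrfs1, chr13:30545363-30545566, minus strand: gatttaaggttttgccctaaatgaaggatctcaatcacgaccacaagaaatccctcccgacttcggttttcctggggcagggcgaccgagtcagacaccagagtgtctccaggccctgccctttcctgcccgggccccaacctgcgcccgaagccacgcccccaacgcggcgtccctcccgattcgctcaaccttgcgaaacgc
Ndufaf4, chr4:24897833-24898082, plus strand: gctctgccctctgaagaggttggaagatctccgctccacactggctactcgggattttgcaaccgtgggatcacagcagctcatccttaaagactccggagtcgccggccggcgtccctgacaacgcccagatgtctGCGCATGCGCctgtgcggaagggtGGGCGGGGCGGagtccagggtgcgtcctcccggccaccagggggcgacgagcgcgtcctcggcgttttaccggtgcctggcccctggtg
The Ndufaf4 promoter holds 1 NRF-1 match, GCGCATGCGC, 113 to 104 bases before the start, and 2 Sp1 matches that share a base. The Atp5b promoter holds 2 Sp1 matches, and none of the 3 motifs was found in that of Uqcrfs1. An NRF-1 match is in 3.74% of the 32851 promoters in the table and in 17.3% of the 75 promoters that belong to the 70 matched nuclear members. An ETS match is in 6.91% of all and 16% of the members' promoters, and an Sp1 match in 32.7% and 36%. A match is a run of letters and not a measured binding site.

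The 2 members that fell with all of SLR10, SLR14 and polyIC were Ndufa4l2 and Atp5sl. Ndufa4l2, a paralog of the complex IV subunit Ndufa4 known as a target of hypoxia-inducible factor, lies at chr10:127514967-127517154 on the plus strand. It was low throughout, with 0.367, 0.553 and 0.360 CPM with SLR10, 0.344, 0.381 and 0.345 CPM with SLR14, 0.452, 0.812 and 0.846 CPM with polyIC, 0.617, 1.04 and 1.03 CPM with pppNS, 1.32 and 1.67 CPM with the vehicle, and 1.45, 1.15 and 2.12 CPM in naïve spleens. All libraries given RNA lay below all others. The log2 change was -1.10 ± 0.22 with SLR10 (adjusted p 0.00124), -1.21 ± 0.22 with SLR14 (adjusted p 0.000616) and -0.74 ± 0.22 with polyIC (adjusted p 0.0182). It reached 1 CPM only in vehicle and naïve libraries and in pppNS replicates 2 and 3. It thus passed the filter only through groups where it was high, which limits these calls. A filter at 5 CPM drops it, and the SLR10 and SLR14 calls held in the 21 alternative analyses that kept it. The polyIC call was lost in 3 of them, under quantile scaling, without polyIC replicate 1 and without vehicle replicate 2 (adjusted p up to 0.156). At these depths 3 reads equal 0.0525 to 0.129 CPM.

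Atp5sl, named after Atp5s and also called Dmac2, takes part in complex I assembly and is no subunit of ATP synthase. It lies at chr7:25619414-25625551 on the plus strand. It measured 26.9, 29.6 and 28.6 CPM with SLR10, 24.9, 21.7 and 27.7 CPM with SLR14, 30.0, 27.2 and 27.3 CPM with polyIC, 41.0, 44.5 and 20.6 CPM with pppNS, 56.6 and 52.3 CPM with the vehicle, and 44.5, 48.9 and 40.9 CPM in naïve spleens. The 9 libraries given SLR10, SLR14 or polyIC lay below all vehicle and naïve libraries, and pppNS replicate 3 lay below them too. The log2 change was -0.93 ± 0.24 with SLR10 (adjusted p 0.00752), -1.13 ± 0.24 with SLR14 (adjusted p 0.00212) and -0.94 ± 0.24 with polyIC (adjusted p 0.00802). Without vehicle replicate 1 the SLR10 call was lost at an adjusted p of 0.0615, and the SLR14 call held in all 22 alternatives. The polyIC call was lost without vehicle replicate 1 and without SLR14 replicate 2 and polyIC replicates 2 and 3 together (adjusted p up to 0.101).

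**Figure D5:**
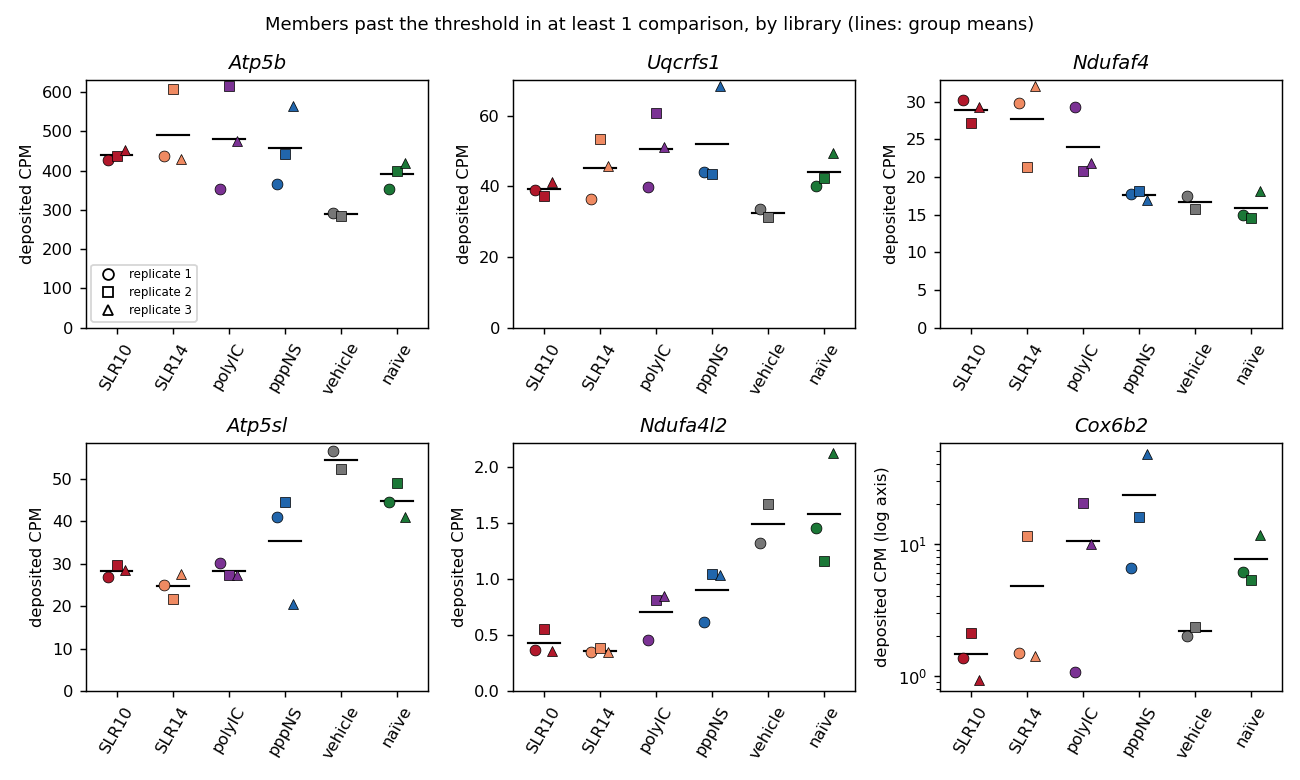
CPM in each library for 6 members called in at least 1 comparison, with lines at group means; the Cox6b2 axis is logarithmic. Ndufaf4 stands at 20.7 to 32.0 CPM with SLR10, SLR14 and polyIC and at 14.6 to 18.2 CPM elsewhere, and Atp5sl shows the reverse order apart from pppNS replicate 3.

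Complex IV has tissue-specific isoforms, and the spleen libraries held mainly the general ones. Cox4i1 averaged 90.4 CPM per kb against 0.424 for Cox4i2, the lung and hypoxia form. Cox6a1 averaged 124 CPM per kb against 1.04 for the heart and muscle form Cox6a2. Cox7a2 stood at 51.1 against 0.323 for the muscle form Cox7a1, and Cox8a at 118 against 0.122 for the muscle form Cox8b. Cox7b averaged 49.8, while Cox7b2 is listed at 0 in all 17 libraries and Cox8c in 16. Ndufa4 averaged 43.1 against 0.798 for Ndufa4l2. Among the 3 genes for the same c subunit of ATP synthase, Atp5g3 led with 36.4 CPM per kb, ahead of Atp5g2 with 20.2 and Atp5g1 with 7.80, and none of the 3 was called in any comparison over all 17 libraries. Of 14 muscle markers 3 passed the filter, with Actc1, Myh6, Myh7 and Mb under 0.2 CPM in every library. Of 8 brown fat markers 2 passed, with Ucp1 and Cidea under 0.2 CPM in every library.

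Cox6b2, known as the testis form of a complex IV subunit, differed widely between libraries of one group. It measured 1.36, 2.13 and 0.936 CPM with SLR10, 1.49, 11.5 and 1.42 CPM with SLR14, 1.07, 20.3 and 9.99 CPM with polyIC, 6.497, 15.9 and 47.4 CPM with pppNS, 2.00 and 2.34 CPM with the vehicle, and 6.10, 5.34 and 11.7 CPM in naïve spleens. Its high libraries in the SLR14 and polyIC groups were SLR14 replicate 2 and polyIC replicates 2 and 3, those with high erythroid sums, and within pppNS it was highest in replicate 3, at 76220 CPM of erythroid transcripts. Its general counterpart Cox6b1 averaged 109 CPM per kb against 7.83 for Cox6b2. Cox6b2 was lower with SLR10 than with pppNS by a log2 change of -3.20 ± 0.91 (adjusted p 0.0134). With the erythroid mean as a covariate, or without pppNS replicate 3, that call was lost.

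With pppNS, 71 of 73 nuclear subunits lay above the vehicle, with a median log2 change of 0.77, and 10 of 12 mitochondrial genes lay below, with a median of -0.46. No member was called higher or lower, where 2.96% of all genes rose and 1.35% fell. Among the 95 members 16 had an unadjusted p under 0.05 and the smallest adjusted p was 0.0949. edgeR on recovered reads called 0 members, where it called 4.06% of all genes, and DESeq2 called 7 of 95, where it called 9.99%. Without pppNS replicate 3 and naïve replicate 3 the nuclear median was 0.10, with 54 of 73 above the vehicle, and the mitochondrial median was -0.39, with all 12 below. The size of the nuclear shift rested on pppNS replicate 3, while the mitochondrial median stayed below 0 with replicates 1 and 2 alone. Replicates 1 and 2 also had higher erythroid means than the vehicle, 7.58 and 7.83 against 4.84 and 5.53 on the log2 scale. The part of erythroid transcripts in these medians was not tested.

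Between SLR10 and pppNS, 1 member was higher and 7 were lower with SLR10, where 20.4% and 19.9% of all genes were and 40.3% in either direction. With the erythroid mean as a covariate none was called, where 23.2% of all genes were, and without pppNS replicate 1 the count was 33, where 44.4% of all genes were called. Fitted on these groups only, 1 was higher and 2 were lower, where 28.9% of all genes were called in either direction. The higher one was Ndufaf4, with a log2 change of 0.69 ± 0.17 (adjusted p 0.00546). Among the lower ones, Ndufs1, the largest subunit of complex I, measured 38.5, 40.4 and 37.0 CPM with SLR10 and 46.2, 55.3 and 68.8 CPM with pppNS (log2 change -0.53 ± 0.19, adjusted p 0.0377). The assembly factor Ndufaf3 measured 4.07, 4.22 and 4.79 CPM against 5.70, 6.58 and 16.1 CPM (-0.89 ± 0.30, adjusted p 0.0306), and Ndufaf7, a methyltransferase acting on complex I, 6.86, 7.14 and 6.77 CPM against 8.76, 10.3 and 12.2 CPM (-0.55 ± 0.15, adjusted p 0.0122). The groups did not overlap for any of these, and how many of all tested genes show this was not counted. Ndufa4l2 and Cox6b2 were also lower, as were Ndufb2 (-0.58 ± 0.20, adjusted p 0.0345) and Atp5s (-1.13 ± 0.30, adjusted p 0.00981), which average under 5 CPM and are named after their values were seen. Without pppNS replicate 3 and naïve replicate 3 the balance turned, to 5 members higher and 3 lower with SLR10, where 22.9% and 19.9% of all genes were. Ndufs1, Ndufb2, Ndufa4l2, Ndufaf3 and Cox6b2 were no longer called, and no nuclear subunit was lower. Ndufs3 (log2 change 0.40), Ndufa12 (0.46), Cox7b (0.46) and Atp5g2 (0.32) were then higher with SLR10, beside Ndufaf4, while Ndufaf7, Atp5s and Atp5sl were lower. The nuclear median moved from -0.67 to -0.04 without them.

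The vehicle libraries lay below untreated spleens for most of these genes, without any call. All 73 nuclear subunits were lower with the vehicle, with a median log2 change of -0.56, and 9 of 12 mitochondrial genes were, with a median of -0.41 that turned to 0.19 under quantile scaling. No member passed in limma, edgeR or DESeq2 (3 had an unadjusted limma p under 0.05), where 0.0143% of all genes were higher and 0.0357% lower. With libraries weighted by their spread, 81 of the 95 members were lower and 2 higher, where 57.3% of all genes were called, 29.9% lower and 27.4% higher. Without naïve replicate 3 and pppNS replicate 3 the nuclear median was -0.33, with 71 of 73 lower, and all 12 mitochondrial genes were lower. Naïve spleens had 3326, 3913 and 5235 CPM of summed nuclear subunits against 2914 and 2750 CPM with the vehicle, so even the lowest naïve library lay above both.

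SLR10 and SLR14 differ in the length of the stem, and no member was called between them (0 of 95, where 0% of the 14010 genes were called and 89 had an unadjusted p under 0.05). edgeR on recovered reads called 0 genes of the whole table and DESeq2 called 1. All 12 mitochondrial genes were slightly higher with SLR14, with a median log2 change of 0.09, and 69 of 73 nuclear subunits were, with a median of 0.13. For mt-Co1 the difference was 0.12 (95% interval -0.30 to 0.54) and for Atp5b 0.15 (-0.31 to 0.60). The interval lay within 2-fold for 58.9% of the members, beside 83.5% of all genes, and reached beyond it for the others. Left with SLR14 replicates 1 and 3 only, the nuclear median was 0.02.

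Genes of the same pathway that the name rule leaves out were counted from fixed lists. These lists, too, were set with earlier results of these data known, so the shares are descriptions. Cytochrome c, Cycs, which carries electrons from complex III to IV, rose from 30.7 ± 0.30 CPM (SD, n = 2) with the vehicle to 88.0 ± 6.8 CPM with SLR10, 87.1 ± 5.0 CPM with SLR14 and 70.6 ± 5.8 CPM with polyIC (n = 3 each). Its log2 changes were 1.503, 1.49 and 1.19, with adjusted p of 0.000669, 0.000721 and 0.00418. It was the only gene called with these RNAs on a list of 6, with Sdha to Sdhd of complex II and Cyc1 of complex III. That is 16.7% higher with each RNA, beside 20.2%, 19.3% and 18.6% of all tested genes. Of 34 assembly factors outside the rule, 8 rose and 4 fell with SLR10, 7 and 4 with SLR14, and 9 and 4 with polyIC. The shares that rose were 23.5%, 20.6% and 26.5%, beside 20.2%, 19.3% and 18.6% of all tested genes, and the share that fell was 11.8% each time, beside 19.2%, 19.4% and 17.3%. Sco1, a copper chaperone for complex IV, rose from 6.02 ± 0.086 CPM to 34.4 ± 0.68 CPM with SLR10, 35.8 ± 1.4 CPM with SLR14 and 23.8 ± 2.9 CPM with polyIC, with log2 changes of 2.42, 2.48 and 1.89. Ttc19, a complex III assembly factor, fell with all 3 agents, from 5.11 ± 0.56 CPM to 2.58 ± 0.36, 2.85 ± 0.22 and 2.88 ± 0.66 CPM.

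Of 30 tested genes that express mitochondrial DNA, 10 rose and 2 fell with SLR10, 11 and 2 with SLR14, 7 and 2 with polyIC, and 1 and 1 with pppNS. The shares that rose were 33.3%, 36.7%, 23.3% and 3.33%, beside 20.2%, 19.3%, 18.6% and 2.96% of all genes. The share that fell was 6.67% with each of the first 3 agents, beside 19.2%, 19.4% and 17.3% of all genes, and 3.33% with pppNS, beside 1.35%. Pnpt1, a mitochondrial RNA-processing enzyme that is also interferon-induced, rose from 31.2 ± 0.12 CPM to 161 ± 5.4 CPM with SLR10, 180.4 ± 24 CPM with SLR14, 223 ± 36 CPM with polyIC and 88.8 ± 21 CPM with pppNS. Elac2, which cuts tRNAs out of mitochondrial transcripts, rose from 19.1 ± 1.0 CPM to 46.7 ± 4.1 CPM with SLR10 (log2 change 1.26). Mterf2, a mitochondrial transcription factor, fell from 5.91 ± 0.43 CPM to 2.26 ± 0.31 CPM with SLR10 (-1.22), and Polg2, the accessory subunit of the mitochondrial DNA polymerase, from 8.39 ± 0.52 CPM to 4.69 ± 0.28 CPM (-0.78). Both were also lower with SLR14 and polyIC.

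Regulators of mitochondrial biogenesis and the enzymes that feed the chain were counted too. Of 14 regulators 4 rose and 1 fell with each of SLR10, SLR14 and polyIC, or 28.6% and 7.14%, beside 18.6 to 20.2% and 17.3 to 19.4% of all genes. Myc rose from 42.8 ± 8.6 CPM to 356 ± 51 CPM with SLR10, and Pprc1, a coactivator related to PGC-1, from 41.8 ± 6.6 CPM to 153 ± 11 CPM, while Sirt3, a mitochondrial deacetylase, fell from 4.51 ± 0.25 CPM to 2.26 ± 0.35 CPM. Of 17 genes of the tricarboxylic acid cycle (5.88% lower, beside 19.2% of all genes), Idh2 fell with SLR10 from 27.6 ± 0.35 CPM to 11.4 ± 1.2 CPM (log2 change -1.25, adjusted p 0.00458) and no other was called there. With polyIC 3 of them rose, Idh3a and Ogdh among them (17.6%, beside 18.6% of all genes), and Idh2 fell (5.88%, beside 17.3%). Of 12 uncoupling and carrier genes, Slc25a4, an ADP/ATP carrier, fell with SLR10 (36.8 ± 0.65 CPM against 55.7 ± 1.2 CPM), as did Higd2a (16.7% lower, beside 19.2% of all genes). Of 76 mitochondrial ribosomal proteins 9 rose with SLR10, 8 with SLR14, 7 with polyIC and 1 with pppNS, and none fell. These are 11.8%, 10.5%, 9.21% and 1.32%, each below the 20.2%, 19.3%, 18.6% and 2.96% of all genes that rose, with Mrpl19 at 26.5 ± 0.65 CPM with SLR10 against 13.8 ± 0.28 CPM.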

How the data were processed

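TruSeq Stranded mRNA libraries from 500 ng of spleen RNA were sequenced, per the labels' protocols. The submitters' processing notes name TopHat2 2.0.6, HTSeq, SAMtools 1.4, FastQC and edgeR, and as builds mm10 and GRCm38. The annotation and strand setting are not given in the sources used here. The deposited signal values are edgeR normalized CPM, per the file headers. The columns sum to between 696096 and 1484240, and whole reads were recovered from 100% of values (tolerance 0.01 read). The 5 lines without a gene name held 28.1 to 46.1% of reads and were left out, with 699 lines named #N/D, 27 with date names and 113 extra lines of repeated names.

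Genes with at least 1 CPM in 2 or more libraries (14010) were tested with limma 3.58.1 (R 4.3.3; trend) on log2(CPM + 0.5), all groups in 1 model, Benjamini-Hochberg adjusted p under 0.05. Fold changes on this scale understate low genes. edgeR 4.0.16 on the recovered reads was an alternative; it called 2771 genes higher and 2603 lower with SLR10 than with the vehicle. DESeq2 1.42.0, other pseudocounts, filters and scalings, library weights, a replicate block, an erythroid covariate, a pooled control and left-out libraries were others. Leaving out pppNS replicate 3 and naïve replicate 3, or these with SLR14 replicate 2 and polyIC replicates 2 and 3, was chosen after seeing the data. The test was checked on simulated data with 1 spread for all genes and no outlying libraries. That check does not cover libraries that stand apart, as some do here. Replicate pairs differed 5.96 to 478 times as much as sampling noise, so every library was counted as its own replicate. How many of all tested genes did not overlap between groups was not counted, so each statement of no overlap describes the named gene only. Positions and lengths are from GENCODE vM21.

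The name rule uses no measured value, but it and the gene lists were set with earlier results of these data known. Named were the mitochondrial members, per comparison up to 4 rises and 4 falls among called nuclear members averaging 5 CPM or more, isoform sets, the 2 highest nuclear subunits of each complex per kb, and up to 2 genes in each direction of other pathway lists.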

Additional observations from a re-analysis of the deposited data

How the results depend on the processing

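Counts of members past the threshold (3, 4, 4, 0, 0, 0 and 8 for SLR10, SLR14, polyIC and pppNS against the vehicle, vehicle against naïve, SLR14 against SLR10, and SLR10 against pppNS) depended on the treatment of the spread; SLR14 against SLR10 stayed at 0 in all alternatives run. For the first 3 comparisons, library weights gave 35, 30 and 20 of 95, where 71.3%, 65.8% and 55.2% of all genes were called. Leaving out pppNS replicate 3 and naïve replicate 3 gave 16, 21 and 20 (52.4%, 51.7% and 49.7% of all genes), and leaving out 5 libraries gave 29, 24 and 18 (65.3%, 62.5% and 53%). The groups compared alone gave 42 with SLR10 and 13 with SLR14 (70.7% and 43.5%), and a control of naïve and vehicle libraries together gave 12 and 10 (49.7% and 48.3%). Quantile scaling gave 11 and 9 (38% and 37.3%). For SLR10, the erythroid covariate (45.3% of all genes), edgeR (38.4%) and DESeq2 (42.5%) each gave 5. Leaving out SLR14 replicate 2 with polyIC replicates 2 and 3 also gave 5 (42.4%). For polyIC, no filter gave 2 (21.4%). With pppNS, library weights gave 18 (29.3% of all genes), 5 libraries left out 10 (21.3%), the pooled control 3 (11%) and DESeq2 7 (9.99%). Leaving out SLR14 replicate 2 with polyIC replicates 2 and 3 gave 2 with pppNS (11.4%). Vehicle against naïve gave 83 with library weights (57.3%) and 9 with 5 libraries left out (7.32%). SLR10 against pppNS gave 0 with the erythroid covariate (23.2%), 3 with the groups compared alone (28.9%), 5 with no filter (22.1%), 22 with library weights (67.2%), 15 with 5 libraries left out (60.3%), 14 with edgeR (40.9%) and 45 with DESeq2 (46.5%). Leaving out 1 library gave 2 to 3, 2 to 4, 1 to 6, 0 to 3, 0 to 0, 0 to 0 and 4 to 33, with 33 without pppNS replicate 1, 4 without pppNS replicate 3 or SLR10 replicate 1, 5 without SLR10 replicate 2 or 3, 3 for pppNS against the vehicle without pppNS replicate 2, 2 for polyIC without its replicate 3, 1 for polyIC without either vehicle library, and 2 for SLR14 without vehicle replicate 2. In SLR10 against pppNS, 44.4% of all genes were called without pppNS replicate 1 and 40.2% without pppNS replicate 3. Without SLR10 replicates 1, 2 and 3 in turn, 29.3%, 28.7% and 27.8% were. For pppNS against the vehicle 6.92% were called without pppNS replicate 2, and for polyIC 31% without its replicate 3. Without vehicle replicates 1 and 2 in turn, 23.3% and 23.6% of all genes were called for polyIC. For SLR14, 26.4% were called without vehicle replicate 2. Atp5b reversed under quantile scaling, to -0.12 with SLR14 and -0.21 with polyIC, and the cause was not tested.

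A replicate block gave 5 members with SLR10, 5 with SLR14, 5 with polyIC and 10 in SLR10 against pppNS. Of all genes it called 40.5%, 39.7%, 37.3% and 44.2% in the same order. The numbers did not pair the libraries: deviations from group means correlated at a median of 0.03 over 40 pairs with equal numbers and -0.03 over 80 pairs with different ones. At 3 reads, 0.0525 to 0.129 CPM, depth limits Cox7b2, Cox8b and Cox8c, which were not compared. mt-Nd4l was not compared either, and the reason for its listed values was not tested.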
